A study of Mus musculus with 20 samples.

Results

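The genes of the cytosolic ribosomal proteins, the protein part of the ribosome that translates nuclear messages, were compared between mouse blood stem and progenitor cells of 5 genotypes. Members were the annotated protein-coding genes whose mouse symbol names a small-subunit protein (Rps or Rpsa), a large-subunit protein (Rpl) or a P-stalk protein (Rplp0, Rplp1, Rplp2) and whose mean over all libraries was at least 1 TPM, the length-normalised abundance unit of the deposited table. Of 46078 gene identifiers in the table, 14176 reached that mean, and 81 of these were members: 32 of the small subunit and 49 of the large subunit, the P-stalk genes included. Of 89 identifiers with a matching symbol, 3 coding genes (Rpl3l, Rpl39l and Rpl10l) were under the limit, and 5 were annotated pseudogenes (Rps3a3, Rps3a2, Rps4l, Rps12l1 and Rpl6l) and were not members.

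RNA-seq was made from total RNA of bone marrow cells sorted as negative for lineage markers and positive for cKit and Sca1 (LSK cells), a gate that holds the blood stem cells and their earliest progeny. Each library was a pool of 2 C57Bl/6J mice aged 3 to 4 months, and each group had 4 pools, so 20 libraries entered. The WT group was +/+;Vav-Cre. The mutant groups were Idh1LSL-R132H/+;Vav-Cre (here Idh1R132H), Idh2LSL-R140Q/+;Vav-Cre (Idh2R140Q) and Idh2LSL-R172K/+;Vav-Cre (Idh2R172K), in each of which Cre under the Vav promoter acts in the blood lineage on 1 altered allele, and Tet2-/- (Tet2KO), for which no Cre is named. In the libraries labelled Tet2KO the gene-level Tet2 value was not lower than in WT (9.91 ± 2.85 against 7.50 ± 1.17 TPM, SD, n = 4), but the labels do not say which exons were removed, and a value for the whole gene does not resolve exons, so it checks nothing about the label.

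Most of these proteins occur once in each ribosome, and their messages are among the most abundant in dividing cells. Many begin with a short run of pyrimidines, the 5′ terminal oligopyrimidine (TOP) motif, through which mTOR signalling acts on their translation. In blood, loss of 1 copy of several of these genes causes inherited anaemia in humans. Isocitrate dehydrogenase mutants of the kinds used here make 2-hydroxyglutarate, which inhibits the dioxygenases to which TET2 belongs.

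The start sites of the members are shown because a pyrimidine run is a feature that many members share and because the members named below differ in where it lies. In RefSeq promoters on GRCm38.p6, the build of the authors' mm10 alignment, 61 members had an entry, with 72 start regions. A run of at least 8 C or T letters on the gene's strand, between 30 bases before and 50 bases after the annotated start, lay in 51 of these regions (70.8%), in 48 members, against 29.0% of all 32851 such regions. Windows of 30 bases are printed 5′ to 3′ on the gene's strand for 8 members that had an entry and are described below, with the pyrimidine run in capitals.
Rpl10 (chrX:74270836-74270865, plus strand): cgtgagcaggcgtgggagcgTCTCTTTTCC
Rpl5 (chr5:107900497-107900526, plus strand): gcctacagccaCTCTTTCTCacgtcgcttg
Rpl11 (chr4:136053358-136053387, minus strand): ccggaagTCTCCCTCTCTCTTCCTgttctc
Rpl10a (chr17:28328572-28328601, plus strand): aagcgctctgCCTTCTTTCCggtttccgcg
Rpl36al (chr12:69184020-69184049, minus strand): gctctgttcgTCCCTTTCCTgttcggcgcg
Rpl38 (chr11:114668568-114668597, plus strand): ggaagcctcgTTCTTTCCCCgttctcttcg
Rpl22l1 (chr3:28805499-28805528, plus strand): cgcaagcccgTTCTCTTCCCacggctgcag
Rpl35 (chr2:39005115-39005144, minus strand): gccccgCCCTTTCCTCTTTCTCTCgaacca
Counted in bases from the annotated start, the capitalised run began at -20 in Rpl5, -7 in Rpl35, -2 in Rpl38 and 2 in Rpl22l1. It began at 14 in Rpl11, 18 in Rpl10a, 29 in Rpl36al and 41 in Rpl10. A run is a match of letters in a window and not a mapped transcription start, so the capitals are not shown to be TOP motifs.

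In WT the members were high and graded: 75 of 81 were above 100 TPM and 20 were above 1000 TPM. Rpl32, a large-subunit protein (chr6:115805505-115808747, mm10), stood at 4794, 5211, 4294 and 3735 TPM in the 4 WT pools. Also among the 5 highest were Rpl4 at 2119 ± 255 and the P-stalk gene Rplp1 at 2044 ± 385 TPM (SD, n = 4). At the other end, Rpl24 (chr16:55966275-55971435) had 1.03, 1.15, 1.67 and 1.51 TPM, Rpl22l1 averaged 43.8 ± 3.28 TPM, and Rpl23a, Rpl35a and Rpl27a averaged 64.1 ± 9.77, 84.0 ± 10.8 and 92.3 ± 8.32 TPM. These levels are per length of exon, and most members share sequence with other genes. Of the 81 members, 80 shared at least 1 stretch of 50 bases with another gene. The shared percentage is taken over all 50-base stretches of 1 transcript per member. Its median was 50.8% and its highest value, for Rps27, was 98.6%. How the authors' counting treated reads that align to several places is not given in the sources used here, so levels of members with many copies are uncertain. Across the members, the shared percentage and the WT level had a Spearman rho of -0.0063, a description over genes that are not independent. The 273 ribosomal pseudogenes found by name held 0.052 to 0.135% of TPM per library. Exons of another gene covered 66.2% of the exon bases of Rpl35, 62.3% of Rpl23a and 47.0% of Rpl24. Reads of such genes may be split between them, so the values of these members are uncertain. They stay in every count, median and range over the 81 members.

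Most members varied less within groups than the median gene tested, in a comparison not matched for level. The median residual standard deviation over the 20 libraries was 0.20 on the log2(TPM + 1) scale for members and 0.27 for all genes tested, and 69 of 81 members were below the all-gene median. Rpl3, a large-subunit protein next to the peptidyl transferase centre, had the lowest, 0.062, and Rpl24 the highest, 0.465, followed by 0.324. Rpl3 stood at 876, 921, 844 and 856 TPM in WT and at 852, 933, 910 and 925 TPM in Tet2KO. Its groups overlapped.

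Together the members took 5.17 to 6.72% of all TPM in WT libraries. In order of replicate number, the 4 WT pools gave 6.35, 6.72, 5.96 and 5.17% (6.05% ± 0.664, SD, n = 4). The Idh1R132H pools gave 6.14, 6.22, 5.55 and 4.98% (5.72% ± 0.578) and the Idh2R140Q pools 6.38, 5.77, 5.73 and 4.67% (5.64% ± 0.709). In each of these groups the number 4 library was the lowest. The Idh2R172K pools gave 6.35, 5.98, 5.87 and 4.91% (5.78% ± 0.614) and the Tet2KO pools 6.05, 8.84, 6.13 and 6.63% (6.91% ± 1.31). All 4 mutant groups overlapped WT. The Tet2KO mean was 6.27% ± 0.317 (SD, n = 3) without Tet2KO 2, the library at 8.84%. In bulk RNA, fewer cells of a type and less RNA per cell cannot be told apart, so a share speaks of neither alone.

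**Figure D1:**
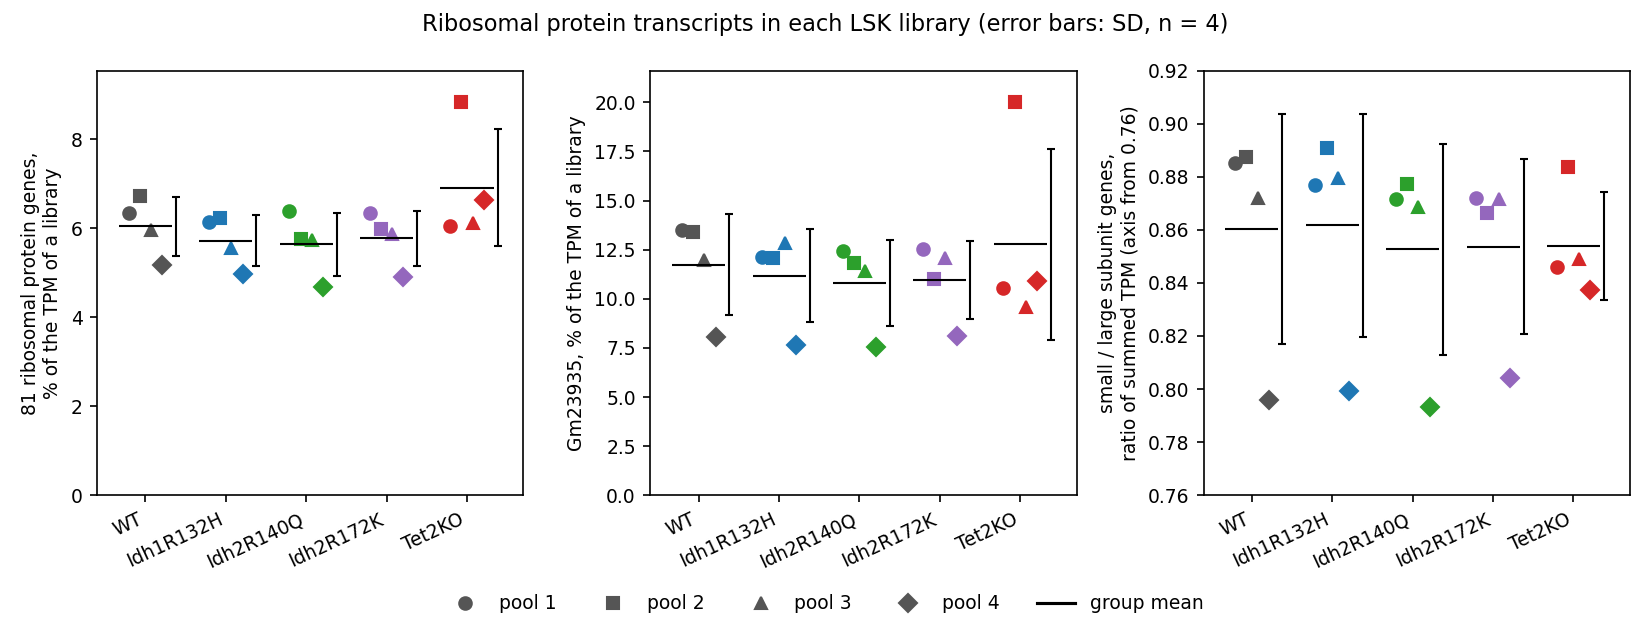
Each point is 1 library, by group on the horizontal axis and with a marker for the replicate number; the panels plot the percent of TPM in the 81 members, the percent of TPM in Gm23935, and the ratio of small- to large-subunit TPM, with a line at the mean and a bar of 1 SD (n = 4). The ratio axis does not start at 0. Tet2KO 2 lies highest in the first panels, at 8.84% and 20.0%, and the number 4 libraries of WT and the 3 Idh groups lie lowest in the ratio, at 0.793 to 0.804.

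A set of 5 libraries stood apart, and the members' counts and medians are therefore also given without Tet2KO 2 and without all 5. The ratio of summed small-subunit to summed large-subunit TPM was 0.796, 0.799, 0.793 and 0.804 in the number 4 libraries of WT, Idh1R132H, Idh2R140Q and Idh2R172K. In the other 12 libraries of these groups it was 0.866 to 0.891, and in the Tet2KO libraries 0.846, 0.884, 0.849 and 0.837. Against the other 3 libraries of its group, WT 4 had 76 of 81 members lower, with a median log2 difference of -0.29 beside 0.20 over all genes tested. The matching medians were -0.26 in Idh1R132H 4, -0.34 in Idh2R140Q 4 and -0.30 in Idh2R172K 4, with 74, 77 and 77 members lower. Tet2KO 2 had 78 members higher, with a median of 0.52 beside -0.41 over all genes.

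The shift of these libraries followed the length of the members' coding sequence. Coding lengths ran from 138 to 1257 bases, with a median of 456 bases against 1353 over all coding genes tested. In WT 4 the 27 shortest members had a median log2 difference of -0.40 and the 26 longest -0.18. In Tet2KO 2 these medians were 0.61 and 0.39. Over the members, coding length and the library's difference had a Spearman rho of 0.62 in WT 4, 0.62 in Idh1R132H 4, 0.67 in Idh2R140Q 4, 0.55 in Idh2R172K 4 and -0.74 in Tet2KO 2. Over all coding genes tested the coefficients had the same signs, 0.33 to 0.44 in the number 4 libraries and -0.53 in Tet2KO 2. These are descriptions across genes of single libraries.

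**Figure D2:**
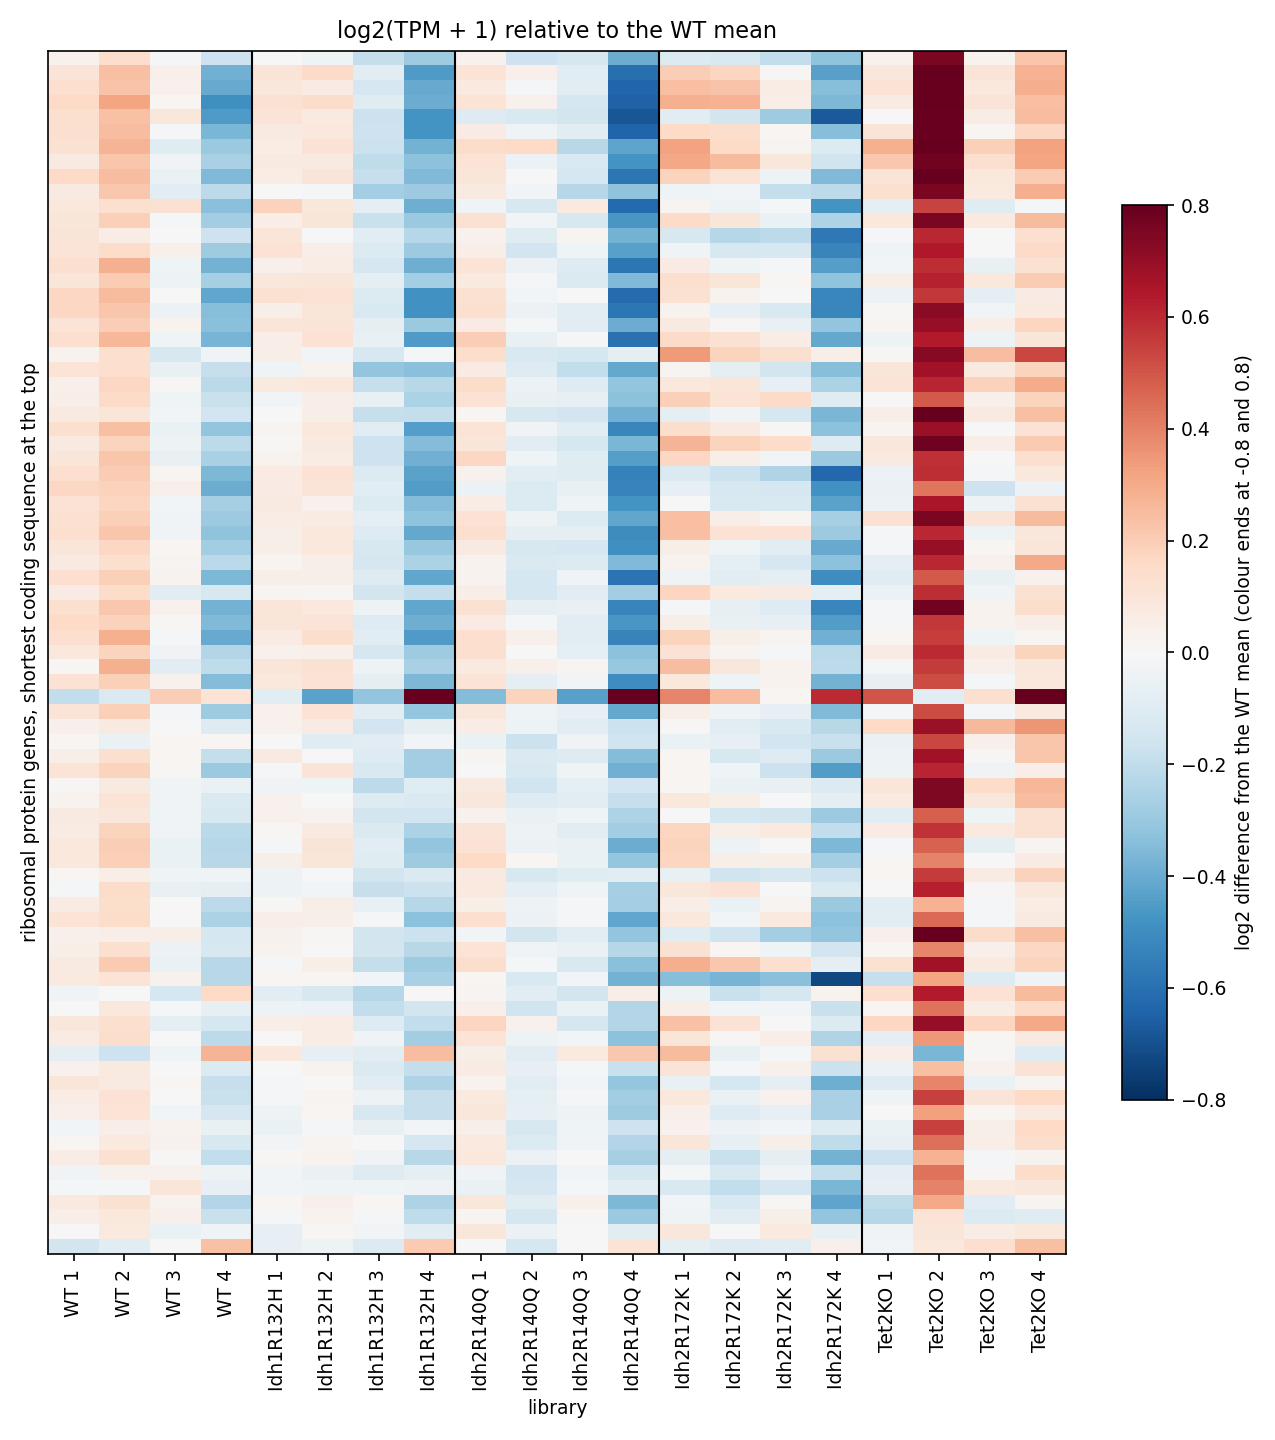
Each row is 1 of the 81 members, ordered from the shortest coding sequence at the top to the longest, and each column is 1 of the 20 libraries; colour is the log2(TPM + 1) difference from the WT mean, with the scale ending at -0.8 and 0.8. The number 4 libraries of WT and the Idh groups read lower mainly in the upper, shorter members, and Tet2KO 2 reads higher in 78 members than the other Tet2KO libraries.

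Other measures moved with these libraries, and their part in the results was not tested. Gm23935, a short annotated miRNA gene (chr16:11144125-11144181) that took a large share of TPM, held 8.03, 7.66, 7.56 and 8.13% in the number 4 libraries of WT, Idh1R132H, Idh2R140Q and Idh2R172K, 20.0% in Tet2KO 2, and 9.57 to 13.5% in the rest. TPM is per length, so for so short a gene this is not its share of reads. Which RNA gave the reads assigned to Gm23935 was not tested. The mean log2(TPM + 1) of 19 immediate early and heat shock genes, which respond to handling, stimulation and heat, was 6.17, 6.49, 6.44 and 5.83 in those number 4 libraries, against 4.35 to 5.25 in the other libraries of these groups. It was 5.64, 5.72, 5.64 and 6.18 in Tet2KO. Summed red cell markers were 94.1 to 133 TPM in Tet2KO and 44.4 to 79.2 TPM elsewhere, and summed macrophage markers were 181 to 219 TPM in Tet2KO, 69.6 to 90.4 TPM in Idh2R172K and 102 to 187 TPM elsewhere. Of the 7 red cell markers, 5 were higher and 1 was lower in Tet2KO than in WT at a limma adjusted p under 0.05. The shares over all genes were 5.02% and 2.02%. Summed mature neutrophil markers were 385 TPM in Idh2R140Q 3 and 24.9 to 147 TPM elsewhere. The LSK gate's markers were present in every library at a summed 1921 to 2766 TPM. Summed B lineage markers were 36.3 to 95.5 TPM in Idh2R172K, 107 to 124 TPM in Tet2KO and 83.5 to 109.5 TPM elsewhere, and summed T and NK markers 730 to 1019 TPM in all 20 libraries. Most of these sums came from Cd79b (22.3 to 101 TPM), Nkg7 (702 to 973 TPM) and Lck (7.44 to 63.3 TPM), while other lymphoid markers reached 0 in some libraries: Pax5 in 3, Ms4a1 in 2, Cd3e in 3, Cd3g in 1 and Gzma in 1. Depth, recovered from TPM and exon length, was 34.9 to 44.7 M reads per library.

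**Figure D3:**
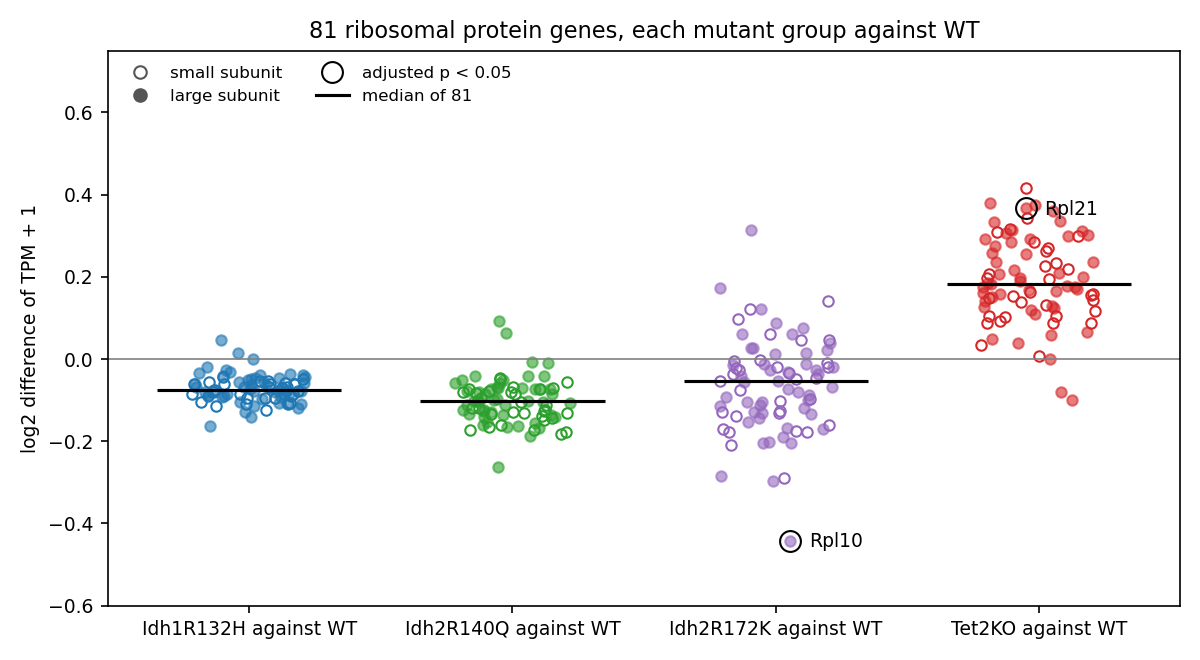
Each point is 1 of the 81 members; the vertical axis is the log2(TPM + 1) difference of a mutant group from WT, open circles are small-subunit and filled circles large-subunit members, a ring marks a called member and the black line is the median. Medians lie at -0.07, -0.10, -0.05 and 0.18 for Idh1R132H, Idh2R140Q, Idh2R172K and Tet2KO, with 1 ring each for Idh2R172K (Rpl10) and Tet2KO (Rpl21).

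No member passed the test against WT in Idh1R132H or in Idh2R140Q. A gene was called at an adjusted p under 0.05 in 1 limma fit of the 5 groups, with Benjamini-Hochberg adjustment over 14176 genes. For Idh1R132H, 0 of 81 members were called, against 0.00705% of all genes, and 0 members had an unadjusted p under 0.05, against 1.62% of all genes. The log2 differences ran from -0.16 to 0.05 with a median of -0.07, beside 0.04 for all genes tested, and 2 members were above 0. For Idh2R140Q, 0 members were called and 0% of all genes were, and 0 members were under an unadjusted 0.05, against 2.87% of all genes. Its differences ran from -0.26 to 0.09, the upper end being Rpl24, with a median of -0.10, beside 0.08 for all genes. The 95% interval of the difference lay within ±1 on the log2 scale for all 81 members in both comparisons, and within ±0.5 for 74 members in Idh1R132H and 64 in Idh2R140Q. Between the pair, 0 members were called, against 0.00705% of all genes, and the median was -0.03. The smallest unadjusted p there was that of Rps27l (-0.13, limma, unadjusted p = 0.47), and Rpl38 (-0.14), Rpl10a (0.07) and Rpl3 (0.03) came next.

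The member with the smallest p for Idh1R132H was Rpl14, a large-subunit protein, at -0.11 (limma, unadjusted p = 0.221), followed by Rpl35 (-0.16), Rpl36 (-0.14), Rpl10a (-0.11) and Rpl41 (-0.13). For Idh2R140Q it was Rpl38, a small large-subunit protein with tissue-restricted loss-of-function effects in mouse development, at -0.26 (limma, unadjusted p = 0.197). Rpl38 stood at 733, 787, 714 and 489 TPM in WT and at 623, 616, 606 and 417 TPM in Idh2R140Q. The number 4 library was the lowest in both groups, and the groups overlapped.

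In Idh2R172K the one member called against WT was Rpl10 (chrX:74270812-74273135), a large-subunit protein that joins late in assembly and whose gene is mutated in some leukaemias. It stood at 455, 464, 441 and 369 TPM in WT (432 ± 43.3, SD, n = 4) and at 340, 332, 341 and 260 TPM in Idh2R172K (318 ± 39.2). All 4 Idh2R172K pools were below all 4 WT pools. The log2 difference was -0.44 ± 0.12 (SE), a fold of 0.736, with an adjusted p of 0.0179 by limma. Idh1R132H had 434, 435, 423 and 359 TPM, Idh2R140Q 436, 396, 424 and 331 TPM and Tet2KO 378, 536, 400 and 422 TPM. Idh2R172K lay below Idh1R132H without overlap too, by -0.38 ± 0.12 (limma, adjusted p = 0.0451). This second call was kept in 10 of 21 alternatives, with limma adjusted p up to 0.183, and in 2 of 8 fits without 1 replicate. Rpl10 shares 85.4% of its exon sequence with other genes, 15 of them in all. The 3 other X-linked members did not pass the test: Rps4x differed by -0.05, Rpl36a by -0.01 and Rpl39 by -0.02.

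Against WT in Idh2R172K the call of Rpl10 was thus 1 of 81 members, against 15.4% of all genes in either direction and 7.33% in the lower direction. At an unadjusted p under 0.05 there were 3 members, all lower, against 28.8% of all genes. The median over members was -0.05, beside 0.11 over all genes tested, with 19 of 81 above 0 and a range of -0.44 to 0.31, the upper end being Rpl24 (0.31) and the next member Rpl22l1 (0.17). The groups did not overlap for 4 members, all lower in Idh2R172K (Rpl10, Rpl19, Rpl29 and Rpl5), against 9.83% of all genes. Neither count of members exceeded the share over all genes.

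Rpl5, which with Rpl11 and 5S rRNA binds Mdm2, had 154, 153, 166 and 148 TPM in WT and 143, 136, 141 and 121 TPM in Idh2R172K. Its 4 Idh2R172K pools were the lower ones without overlap, at -0.20 (limma, adjusted p = 0.113). Idh1R132H had 153, 151, 152 and 151 TPM, Idh2R140Q 149, 141, 155 and 146 TPM, and Tet2KO 149, 205, 164 and 165 TPM. Rpl36al, the autosomal copy of X-linked Rpl36a, had 180, 175, 168 and 149 TPM in WT and 153, 143, 145 and 112 TPM in Idh2R172K. It differed by -0.29 (limma, adjusted p = 0.172), and the groups overlapped.

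The call of Rpl10 in Idh2R172K depended on single libraries. It passed in 16 of 21 alternative settings. It was lost without Idh2R172K 4 (-0.35, limma adjusted p = 0.0739) and without WT 1 or WT 2 (-0.42 and -0.41, limma adjusted p = 0.0518 and 0.0572). Median-of-ratios scaling (-0.54, limma adjusted p = 0.085) and rescaling to nuclear coding genes (limma adjusted p = 0.0605) also ended it. Over all 21, the adjusted p from limma ran from 4.14e-05 to 0.085. With Tet2KO 2 left out of the fit, Rpl10 and Rpl5 passed (limma adjusted p = 0.00534 and 0.0172), 2 members against 10.1% of genes called lower. Leaving out the number 4 libraries of WT and the Idh groups together with Tet2KO 2 gave 11 members lower and 0 higher. Of all genes, 10.6% were called lower and 22.2% higher in that fit. The lower members included Rpl10 (-0.42), Rpl38 (-0.32), and Rpl36al, Rpl27, Rps16, Rps12, Rpsa, Rpl5 and Rpl8 (-0.24 to -0.16). The members' median was -0.05 in both.

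**Figure D4:**
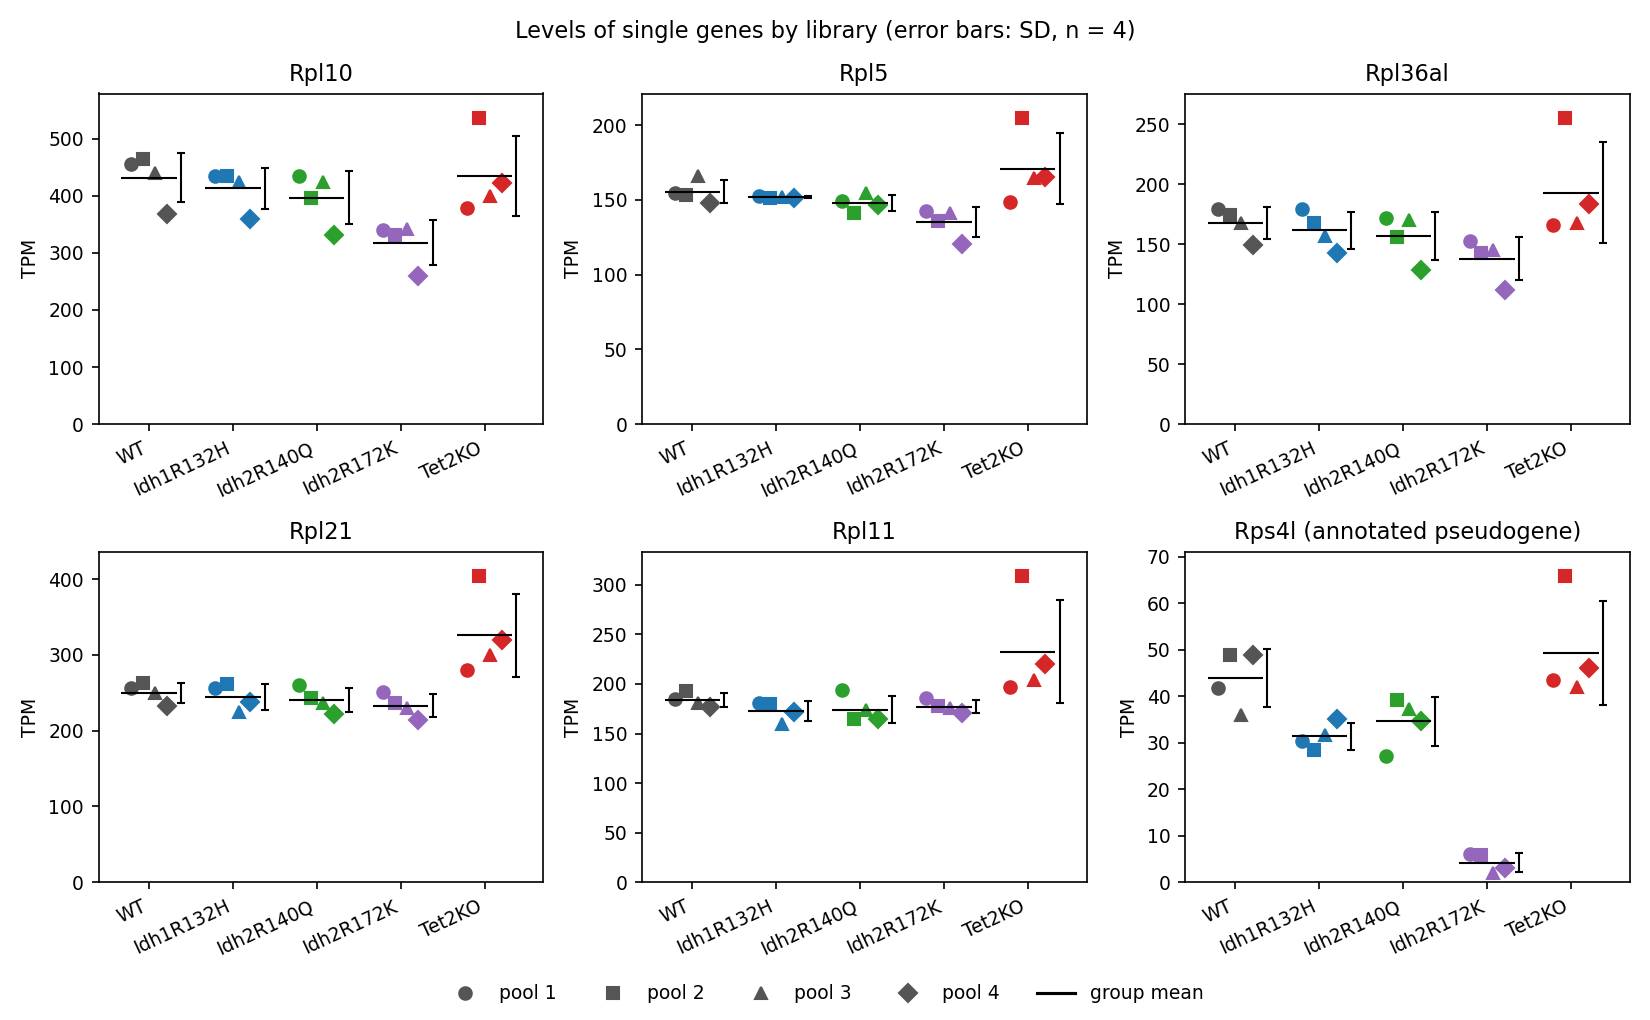
Each point is the TPM of 1 gene in 1 library, by group, with a marker for the replicate number, a line at the mean and a bar of 1 SD (n = 4), for Rpl10, Rpl5, Rpl36al, Rpl21, Rpl11 and the pseudogene Rps4l. The Idh2R172K points lie below all WT points for Rpl10, Rpl5 and Rps4l, and Tet2KO 2 is the highest Tet2KO point in all 6 panels.

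Beside the members, the annotated pseudogene Rps4l (chr6:148354656-148355598) differed most from WT among the tested genes with a matching symbol. It is related to the X-linked Rps4x. It stood at 41.8, 48.9, 36.0 and 48.8 TPM in WT and at 6.10, 5.92, 1.91 and 3.02 TPM in Idh2R172K, far apart without overlap. The difference was -3.18 ± 0.23 (SE; limma, adjusted p = 1.6e-08) and passed in 21 of 21 alternatives, with adjusted p up to 0.000233. Idh1R132H had 30.3, 28.4, 31.7 and 35.2 TPM, Idh2R140Q 27.2, 39.2, 37.3 and 34.7 TPM and Tet2KO 43.6, 65.8, 42.0 and 46.0 TPM.

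In Tet2KO the one member called against WT was Rpl21, a large-subunit protein (chr5:146832890-146837032). It had 257, 263, 249 and 232 TPM in WT (250 ± 13.2, SD, n = 4) and 280, 404, 300 and 320 TPM in the libraries labelled Tet2KO (326 ± 54.7). All 4 Tet2KO pools were above all 4 WT pools, and Tet2KO 2 was the highest. The log2 difference was 0.37 ± 0.096 (SE), a fold of 1.29, with an adjusted p of 0.0309 by limma. Idh1R132H had 256, 262, 224 and 238 TPM, Idh2R140Q 260, 243, 236 and 222 TPM, and Idh2R172K 251, 236, 230 and 214 TPM, all below the lowest Tet2KO pool. Rpl21 shares 46.5% of its exon sequence with 82 other genes.

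The single call was 1 of 81 members, against 7.05% of all genes in either direction, 5.02% in the higher and 2.02% in the lower direction. At an unadjusted p under 0.05 there were 13 members, all higher, against 26.6% of all genes. The members' median was 0.18, beside 0.02 over all genes tested, with 79 of 81 above 0 and a range of -0.10 (Rpl7l1) to 0.42 (Rps27). The groups did not overlap for 3 members, Rpl21 and Rpl11 among them, all higher, against 9.11% of all genes. The 95% interval of the difference lay within ±0.5 for 42 of 81 members.

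The median depended on Tet2KO 2 and on the number 4 libraries. Without Tet2KO 2 the median was 0.05, beside 0.11 over all genes, with 66 of 81 above 0, and Rpl21 was still the one member called (0.26, limma adjusted p = 0.045), against 5.42% of genes called higher. Without the number 4 libraries of WT and the Idh groups as well, the median was -0.001, beside 0.16 over all genes, and 40 of 81 were above 0. In that fit 3 members were higher, Rpl4 (0.20), Rpl10a (0.22) and Rpl21 (0.22, limma adjusted p = 0.0238), and 3 lower, Rpl27 (-0.22), Rplp0 (-0.20) and Rpl10 (-0.18), against 28.5% of genes higher and 3.36% lower. Rpl21 passed in 10 of 21 alternatives, with adjusted p from limma of 0.00963 to 0.928. Its call was lost when Tet2KO 4, WT 1, WT 3 or WT 4 was left out (limma, adjusted p = 0.067, 0.0591, 0.083 and 0.0638). It was also lost in a fit of Tet2KO and WT alone (limma, adjusted p = 0.18), on centring, on rescaling to nuclear coding genes and in each of the 4 fits with median-of-ratios scaling.

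Tet2KO was also compared with each Idh group, and these 3 comparisons share the Tet2KO libraries. Against Idh1R132H 9 members were higher and 0 lower, where 6.82% of all genes were called higher and 6.67% lower. Against Idh2R140Q 7 were higher and 0 lower, where 4.05% of all genes were higher and 5.49% lower (9.54% in either direction). Against Idh2R172K 14 were higher and 0 lower, where 11.9% of all genes were higher and 14.9% lower (26.8% in either direction). At an unadjusted p under 0.05 from limma, 33, 45 and 30 members were under that value in these comparisons, as were 31.5%, 30.1% and 40.1% of all genes. Groups did not overlap, Tet2KO being higher, for 19, 11 and 18 members, where this held for 9.76%, 6.86% and 11.7% of all genes. Members' medians were 0.26, 0.29 and 0.25, beside 0.00, -0.04 and -0.06 over all genes. Over the 10 comparisons 18 members were called at least once, of which 17 were of the large subunit and 1 was of the small. Rpl11, Rpl21 and Rpl36 were called against each of the Idh groups.

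Rpl11, the partner of Rpl5 in the Mdm2-binding particle (chr4:136028265-136053428), had 197, 309, 204 and 221 TPM in Tet2KO. It had 180, 180, 159 and 172.1 TPM in Idh1R132H, 194, 165, 174 and 165 TPM in Idh2R140Q, 185, 177, 176 and 170 TPM in Idh2R172K and 185, 193, 180 and 177 TPM in WT. The lowest Tet2KO pool was above every other library, by a small margin over Idh2R140Q 1 and WT 2. Its log2 differences were 0.40 from Idh1R132H, 0.39 from Idh2R140Q and 0.37 from Idh2R172K (limma, adjusted p = 0.0226, 0.0346 and 0.0192). From WT it differed by 0.31 (limma, adjusted p = 0.0779).

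Rpl36, a large-subunit protein (chr17:56613416-56614243), had 1536, 2375, 1483 and 1724 TPM in Tet2KO and 1483, 1635, 1330 and 1219 TPM in WT, and these groups overlapped. It had 1412, 1396, 1167 and 1153 TPM in Idh1R132H, 1480, 1387, 1201 and 1126 TPM in Idh2R140Q and 1377, 1389, 1236 and 1216 TPM in Idh2R172K. Tet2KO lay above each Idh group, by a margin of a few TPM over Idh2R140Q 1. The differences were 0.45, 0.44 and 0.42 (limma, adjusted p = 0.0338, 0.0478 and 0.0275). These calls were kept in 8, 7 and 8 of 21 alternatives, and each was lost when Tet2KO 2 was left out.

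Rpl10a, the protein of the L1 stalk by the tRNA exit site (chr17:28328471-28331033), had 154, 218, 152 and 167 TPM in Tet2KO against 132.2, 128, 119 and 140 TPM in Idh1R132H and 136, 124, 127 and 143 TPM in Idh2R172K. Tet2KO was higher without overlap, by 0.39 and 0.37 (limma, adjusted p = 0.0212 and 0.0155). WT had 137, 141, 127 and 156 TPM, of which the number 4 library was the highest and overlapped Tet2KO. Rpl22l1, the paralogue of Rpl22, had 44.0, 73.2, 52.1 and 63.6 TPM in Tet2KO and 45.4, 43.1, 39.8 and 43.3 TPM in Idh1R132H. It passed the test (0.41, limma adjusted p = 0.0397), although Tet2KO 1 lay within the Idh1R132H range. The call of Rpl22l1 was kept in 6 of 21 alternatives and was lost when Tet2KO 2 was left out. The widest called difference was that of Rpl38, which had 672, 1158, 699 and 796 TPM in Tet2KO and 632, 604, 550 and 419 TPM in Idh2R172K. Tet2KO was higher without overlap, by 0.57 (limma, adjusted p = 0.0387). This call was kept in 8 of 21 alternatives, with adjusted p from limma of 0.00415 to 0.373, and was lost when Tet2KO 2 (0.40, limma adjusted p = 0.137), Tet2KO 4, Idh2R172K 2, Idh2R172K 3 or Idh2R172K 4 was left out. Over all calls in these comparisons the differences ran from 0.27 to 0.57.

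Without Tet2KO 2, 3 members were higher against Idh1R132H (Rpl11, Rpl10a and Rpl21, at 0.26 to 0.29), against 6.95% of genes called higher. There were 3 against Idh2R140Q, including Rpl11 (0.25) and Rpl21 (0.32), against 2.84% of genes. There were 9 against Idh2R172K, from Rpl29 at 0.18 to Rpl21 at 0.36, against 12.8% of genes. Medians fell to 0.12, 0.17 and 0.12. Rpl21 and Rpl11 were called against every Idh group with and without that library. A limma fit of only the groups compared called 0 members in each of the 4 Tet2KO comparisons, where it called 0.317%, 3.87%, 0.0282% and 8.39% of all genes against WT, Idh1R132H, Idh2R140Q and Idh2R172K. Under median-of-ratios scaling 0, 0 and 3 members were called against Idh1R132H, Idh2R140Q and Idh2R172K, beside 24.8%, 19.8% and 34.8% of all genes. With that scaling and without the number 4 libraries of WT and the Idh groups and Tet2KO 2, members' medians were on the other side of 0, at -0.10, -0.05 and -0.05, and at -0.21 against WT.

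Directions depended on the scaling. Median-of-ratios scaling gave a members' median of -0.15 for Idh2R172K against WT and 0.14 for Tet2KO against WT, with 0 members called in both, where 19.6% of all genes were called in each. Centring every library on the members themselves shows the spread around their common shift. It then left Rpl10 at -0.27 in Idh2R172K (limma, adjusted p = 0.0163). Of all genes called in Tet2KO against WT, 71.3% were higher as deposited, 35.5% under median-of-ratios scaling and 30.8% after centring on the members. For Idh2R172K against WT these shares were 52.3%, 44.1% and 67.1%. Centring moved the median of all genes from 0.11 to 0.28 for Idh2R172K and from 0.02 to -0.22 for Tet2KO.

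Few members passed between the remaining groups. Idh2R172K against Idh1R132H gave 1 lower member, Rpl10, and 0 higher, against 7.32% of all genes lower, 6.21% higher and 13.5% in either direction. For 2 members, Rpl10 and Rpl5, these groups did not overlap, against 11.4% of all genes. Idh2R172K against Idh2R140Q gave 0 called members, against 10.5% of all genes (3.76% higher and 6.74% lower), and 1 member, Rpl10, at an unadjusted p under 0.05 (-0.32, limma, adjusted p = 0.12). With the replicate number as a block in a fit of all 20 libraries, Rpl10 was called lower there too (limma, adjusted p = 0.0248), where 14.6% of all genes were called. That fit also holds WT and Tet2KO, whose numbers are not taken to pair with those of these groups. Rpl22l1 (0.22), Rps24 (0.25), Rpl37a (0.25) and Rps19 (0.22) had the next smallest p and did not pass. Medians were 0.02 and 0.04.

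By function, 17 members that cause inherited anaemia when 1 copy is lost in humans were compared as a list. None passed against WT in any mutant. Of the 17, 0 were above 0 in Idh1R132H, 0 in Idh2R140Q, 5 in Idh2R172K and 17 in Tet2KO, with medians of -0.08, -0.12, -0.07 and 0.20. In Idh2R172K the highest was Rps19 at 0.14, and in Tet2KO they ran from 0.06 (Rpl15) to 0.42 (Rps27). Rps19, the most often mutated of them, differed by -0.11, -0.08, 0.14 and 0.26, and Rps14, the gene of the deleted region in the 5q- syndrome, by -0.08, -0.11, -0.03 and 0.14. Without Tet2KO 2 the Tet2KO median was 0.04 with 13 of 17 above 0, and without all 5 libraries it was -0.04 with 7 of 17 above 0, with 0 called in both fits. In Idh2R172K 1 of the 17, Rpl5, was called lower without Tet2KO 2 and 2 were without all 5. The shares of all genes called lower in these fits were 10.1% and 10.6%.

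The P-stalk genes, which recruit the translational GTPases, had medians of -0.09, -0.13, -0.10 and 0.13 in the order used above. In Tet2KO Rplp0 differed by -0.08, Rplp1 by 0.16 and Rplp2 by 0.13, none passing the test. Without Tet2KO 2 these values were -0.15, 0.01 and -0.02, and none passed. Without all 5 libraries they were -0.20, -0.11 and -0.16, of which Rplp0 was called lower (limma, adjusted p = 0.0128).

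Within paralogue pairs, the TPM ratio in each library was compared by an exact permutation test, 2-sided, 4 pools against 4, for which the smallest possible p is 0.0286. Of 12 tests, none passed after Benjamini-Hochberg adjustment. A single test at that smallest p could not pass over 12 tests, however far apart the pools lay, so this outcome says little. A p above the threshold does not show that ratios were alike. The log2 ratio of Rpl36al to Rpl36a was -0.49 ± 0.102 in WT and -0.76 ± 0.081 in Idh2R172K (SD, n = 4). The linear ratios were 0.713, 0.650, 0.719 and 0.772 in WT against 0.584, 0.567, 0.639 and 0.567, with all 4 Idh2R172K pools lower (difference -0.27, exact p = 0.0286, adjusted 0.171). The log2 ratio of Rps27l, a p53 target, to Rps27 was -0.30 ± 0.154 in WT and -0.63 ± 0.030 in Tet2KO. All 4 Tet2KO pools, at 0.632, 0.647, 0.664 and 0.644, were below WT at 0.793, 0.734, 0.945 and 0.792 (difference -0.33, exact p = 0.0286, adjusted 0.171). Rpl22l1 to Rpl22 differed by 0.20 in Tet2KO (exact p = 0.0571, adjusted 0.229) and by 0.08 in Idh2R172K (adjusted 0.629). In Idh1R132H and Idh2R140Q all ratios had adjusted exact p of 0.748 to 0.83.

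Genes that build or use ribosomes were taken from lists of textbook members. Idh1R132H and Idh2R140Q had no call in any list, and the counts below are higher and lower calls against WT. Of 55 ribosome assembly genes, 0 were higher and 4 lower in Idh2R172K, among them the rRNA methyltransferase Fbl, which had 247 ± 8.05 TPM in WT and 196 ± 18.3 TPM in Idh2R172K (-0.34 ± 0.08, limma adjusted p = 0.00496). The others were Gar1 (-0.29), Nhp2 (-0.43) and Nop16 (-0.22). Gar1 and Nhp2 are proteins of the box H/ACA snoRNA particles. In Tet2KO, 0 were higher and 4 lower, and these were other genes: Heatr1, Utp20, Rrp12 and Bysl. Heatr1, needed for early pre-rRNA processing, had 93.6 ± 4.2 TPM in WT and 47.1 ± 22.2 TPM in Tet2KO (-1.14 ± 0.28, limma adjusted p = 0.0247).

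Of 16 RNA polymerase I genes, which serve rRNA synthesis, 0 were called in Idh2R172K. In Tet2KO 0 were higher and 2 lower, Polr1a (-0.70) and Polr1b (-0.64) (limma, adjusted p = 0.0416 and 0.0486). Of 42 translation factors, 4 were lower in Idh2R172K, Eif3g (-0.41, limma adjusted p = 0.000539), Eif5a (-0.34), Etf1 (-0.37) and Eef1d (-0.26). In Tet2KO Eif5b was higher (0.48) and Eif3b (-0.73) and Gspt1 (-0.70) lower. Of 76 mitochondrial ribosomal proteins, 7 were lower in Idh2R172K, led by Mrps36 (-0.55, limma adjusted p = 0.00573), and 0 were called in Tet2KO. These lists stand beside 15.4% of all genes called in Idh2R172K and 7.05% in Tet2KO.

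Of 29 genes of mTOR and MYC signalling, 3 were higher in Idh2R172K: Mycn, from 70.4 ± 18 to 156 ± 24.8 TPM (1.16, limma adjusted p = 0.00114), Mycl (0.96) and Sesn3 (0.76). Of 22 TOP messages and snoRNA hosts other than the members, Snhg8 was higher in Idh2R172K (0.46), and Snhg8 (0.47) and Gas5 (0.64) were higher in Tet2KO. Of 12 tested genes of a list of p53, its regulators Mdm2 and Mdm4 and p53 targets, 4 were higher in Idh2R172K: Perp, from 6.03 ± 0.613 to 94.8 ± 10.4 TPM (3.77 ± 0.17, limma adjusted p = 5.45e-11), Pmaip1 (1.37), Bbc3 (0.90) and Phlda3 (0.82). In Tet2KO Cdkn1a was higher (0.67, limma adjusted p = 0.0389), and without Tet2KO 2 no gene of that list was called there. Of all genes tested, 8.03% were called higher than WT in Idh2R172K and 5.02% in Tet2KO.

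These counts moved with the libraries left out. Without Tet2KO 2, assembly genes numbered 0 higher and 8 lower in Idh2R172K and 0 and 3 in Tet2KO, and mitochondrial ribosomal proteins 0 and 13 in Idh2R172K. In that fit 13.6% of all genes were called higher and 10.1% lower in Idh2R172K, and 5.42% and 1.62% in Tet2KO. Without the number 4 libraries of WT and the Idh groups and Tet2KO 2, assembly genes numbered 11 higher and 4 lower in Tet2KO, RNA polymerase I genes 6 and 3, and mitochondrial ribosomal proteins 7 and 1, where 28.5% of all genes were higher and 3.36% lower. In fits of only Tet2KO and WT no gene of these lists was called.

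Fau, whose product is made as a fusion with a ubiquitin-like part, and the ribosome-bound scaffold Rack1 are ribosomal by function but not by symbol. Fau averaged 421 ± 49.4 TPM in WT and 507 ± 118 TPM in Tet2KO (0.25, limma adjusted p = 0.297). Rack1 averaged 370 ± 28.5 TPM in WT and 322 ± 30.2 TPM in Idh2R172K (-0.20, limma adjusted p = 0.214).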

How the data were processed

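The authors deposited 1 table of TPM values, in which each library sums to a fixed total (trimmed with Trim Galore, aligned with STAR to mm10 and counted with featureCounts, per the submitters' processing notes), and all 20 libraries were used. Versions and the handling of multimapping reads are not given in the sources used here. Symbols, coordinates and coding lengths came from GENCODE M21, and 849 identifiers had no symbol. Values were tested as log2(TPM + 1) for 14176 genes whose mean reached 1 TPM, in 1 limma 3.58.1 fit (R 4.3.3) of 5 groups with a variance trend and Benjamini-Hochberg adjustment over all of them. A gene is called at an adjusted p under 0.05. Ratios were tested in Python 3.11.15 with scipy 1.17.1. Depth was recovered from TPM and exon length. Of the values of at most 30 reads, 76.7 to 78.7% came out whole within 0.1 of a read. The fit, tested on simulated Idh2R172K against WT data of 14176 genes, recovered 67% of genes changed by 1 and 95% of those changed by 2 on the log2 scale (100 each). The simulated noise was independent between genes, with no shift of a whole library. Changes under 1 were not simulated, so these rates do not cover smaller differences.

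Named genes are, by rule, up to 10 called members in each direction against WT and up to 5 between mutants (where none is called, the 5 smallest p), the 5 highest and lowest by WT level, the paralogue and anaemia lists, ribosomal proteins outside the symbol rule, and up to 4 called genes of other lists. Other members named were chosen after their values were seen. Results of some members are not reported here. Members and lists were chosen with earlier results of these data known. Replicates are pools of different mice as labelled, and p-values measure the spread between these pools. Each replicate was left out in turn, and scaling, filter, pseudocount, groups fitted and a replicate block were varied. Pairs of the same number all had correlated deviations (over 0.1) for Idh1R132H and WT and between the Idh groups, and not for Idh2R140Q or Idh2R172K and WT or for Tet2KO, so the numbers are not taken to pair samples there.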

Additional observations from a re-analysis of the deposited data

Results flagged for a closer look

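In 12 of 115 groups of 4 libraries examined, the highest or lowest library lay farther from the others than Dixon's limit for 4 values, where chance gives about 5.75. The number 4 libraries account for 8 and Tet2KO 2 for 3. The small- to large-subunit ratio was low in WT 4 (0.796), Idh1R132H 4 (0.799), Idh2R140Q 4 (0.793) and Idh2R172K 4 (0.804). The share of Gm23935 was 7.66% in Idh1R132H 4 and 20.0% in Tet2KO 2. Rpl10 was low in Idh1R132H 4 (359 TPM) and Idh2R172K 4 (260 TPM), and Rpl38 in Idh2R140Q 4 (417 TPM). Rpl29 was 463 TPM in WT 2. In Tet2KO 2 Rpl35 was high at 357 TPM and Rps4l at 65.8 TPM.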

How the results depend on the processing

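Counts below are members called, and medians are of the members' log2 differences. A count with no share of all genes beside it does not show whether members moved apart from other genes. Those shares moved between fits too. Without Tet2KO 2 the share called in either direction went from 15.4% to 23.7% for Idh2R172K against WT. For Tet2KO against Idh2R172K it went from 26.8% to 23.1%. Without 1 replicate, counts ran 0 to 1 for Idh2R172K against WT, 0 to 3 for Tet2KO against WT, 0 to 1 for Idh2R172K against Idh1R132H, 0 to 20 for Tet2KO against Idh1R132H, 0 to 1 for Idh2R172K against Idh2R140Q, 0 to 22 for Tet2KO against Idh2R140Q and 6 to 26 for Tet2KO against Idh2R172K, and stayed 0 for the rest. Medians without 1 replicate ran -0.15 to -0.01 (Idh1R132H against WT), -0.19 to -0.01 (Idh2R140Q against WT), -0.13 to 0.01 (Idh2R172K against WT), 0.05 to 0.25 (Tet2KO against WT), -0.10 to 0.06 (Idh2R140Q against Idh1R132H), -0.05 to 0.08 (Idh2R172K against Idh1R132H), 0.12 to 0.32 (Tet2KO against Idh1R132H), -0.05 to 0.10 (Idh2R172K against Idh2R140Q), 0.17 to 0.35 (Tet2KO against Idh2R140Q) and 0.12 to 0.32 (Tet2KO against Idh2R172K).

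Centring makes the median of the members equal in every library by construction, so its counts cannot show whether the members as a whole differ. It gave counts of 6 (Idh2R172K against WT), 8 (against Idh1R132H) and 3 (against Idh2R140Q), and for Tet2KO 5 lower against Idh1R132H, 16 lower against Idh2R140Q and 31 lower against Idh2R172K. Shares of all genes called in these fits are not reported here. Medians were then 0.041 (Idh2R140Q against WT), 0.12 (Idh2R172K against WT), -0.061 (Tet2KO against WT), 0.12 (Idh2R172K against Idh1R132H), and for Tet2KO -0.050, -0.099 and -0.17 against the 3 Idh groups. Members whose sign turned were Rpl19 (-0.026) and Rpl14 (-0.039) against Idh1R132H, Rpl17 (-0.023) against Idh2R140Q, and Rpl19 (-0.079), Rpl10a (-0.051), Rpl29 (-0.12), Rpl5 (-0.087), Rpl11 (-0.051) and Rpl35 (-0.026) against Idh2R172K, all in Tet2KO.

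Median-of-ratios scaling gave 0 for Idh2R172K and Tet2KO against WT, Idh2R172K against Idh1R132H and Tet2KO against Idh1R132H and Idh2R140Q, 3 for Tet2KO against Idh2R172K, and a median of -0.15 for Idh2R172K against WT. Combinations of this scaling with left-out libraries or a block were chosen after seeing the data. With the block the median was -0.15 for Idh2R172K against WT, and counts were 0 for Tet2KO against WT and 19 for Tet2KO against Idh2R140Q. Without Tet2KO 2 medians were -0.15 (Idh2R172K against WT) and -0.11, 0.0078, 0.098 and 0.065 for Tet2KO against WT and the 3 Idh groups, with 0 called in those 4 and in Idh2R172K against Idh1R132H. Without the number 4 libraries of WT and the Idh groups and Tet2KO 2 it gave 22 (Idh2R172K against WT, beside 27.5% of all genes called), 36 lower (Tet2KO against WT, beside 16% lower), 5 (Idh2R172K against Idh1R132H, 24.8%), 1 (Idh2R172K against Idh2R140Q, 19.1%), 2 (Tet2KO against Idh2R140Q, 22.7%) and 3 (Tet2KO against Idh2R172K, 35.9%). Medians were then -0.16 (Idh2R172K against WT) and -0.21, -0.098, -0.054 and -0.051 for Tet2KO, with Rpl19 at -0.017 and, for Rpl14, Tet2KO against Idh1R132H, at -0.0034.

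As deposited and without those 5 libraries, counts were 11 (Idh2R172K against WT), 6 (Tet2KO against WT), 3 (Idh2R172K against Idh1R132H), 5 (Tet2KO against Idh1R132H) and 1 (Idh2R172K against Idh2R140Q), and Tet2KO medians -0.00056, 0.074, 0.080 and 0.050. Without Tet2KO 2 alone, counts were 2, 2 and 1 for Idh2R172K against WT, Idh1R132H and Idh2R140Q and 3, 3 and 9 for Tet2KO against the Idh groups. Fits of only the groups compared gave 0 in the 4 Tet2KO comparisons. A mean of at least 5 TPM gave 0 for Idh2R172K and 13 for Tet2KO against Idh1R132H and Idh2R140Q respectively. No filter gave 0 for Idh2R172K and 3 for Tet2KO against Idh1R132H, and 1 for Tet2KO against Idh2R140Q. Rescaling over nuclear coding genes gave 0 for Idh2R172K and Tet2KO against WT, 0 for Idh2R172K and 4 for Tet2KO against Idh1R132H, and 9 for Tet2KO against Idh2R172K.

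With the replicate number as a block, counts were 10, 32, 40 and 42 for Tet2KO against WT, Idh1R132H, Idh2R140Q and Idh2R172K, beside 17.5%, 25%, 21.1% and 37.1% of all genes, and 1 for Idh2R172K against Idh2R140Q. The block changed no other count among the pairs whose numbers deviate together. Correlations of same-numbered deviations were 0.176 to 0.489 for Idh1R132H and WT but -0.081 to 0.079 for Tet2KO and WT. Of the results of single members under the alternatives, 365 kept their call, 317 lost it and 11 turned sign. The cause of these changes was not tested. With 4 pools a group, differences under 0.5 on the log2 scale are resolved for only some members, and TPM sums to a fixed total, so the level of 1 abundant RNA moves all others.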
